A study of Drosophila melanogaster with 6 samples.

Results

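The 10 genes described here encode the phospholipase C of fly photoreceptors, a protein that keeps up its level, and the proteins that clear and rebuild the membrane lipid it cleaves. They were chosen by name from what is known of phototransduction (norpA, stops, rdgA, inaE, Cds, Pld, Pis, rdgB, sktl and PIP4K). The choice was made with earlier results of these data known. All 10 were found by FlyBase gene identifier among the 17509 genes of the count files, and all 10 passed the filter on low counts. Their transcripts were measured by RNA sequencing of whole heads. The heads came from Drosophila melanogaster females of the wild-type strain Canton S at an age of 4 days. The 3 vitamin A deprived libraries came from flies raised on minimal food lacking beta-carotene, and the 3 vitamin A replete libraries from flies whose minimal food had beta-carotene added. Flies of both groups were kept at 25 °C and 50% relative humidity, and neither group carries a mutation or transgene in the labels. How many heads went into a library, and whether libraries came from separate sets of flies, is not given in the sources used here, so p-values measure the spread between these libraries, which may be technical. The comparison asks which steps of the cycle differ in heads of flies that lack the source of the visual chromophore.

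Light-activated rhodopsin switches on a G protein, which activates the phospholipase C encoded by norpA. The enzyme cleaves phosphatidylinositol 4,5-bisphosphate (PIP2) in the microvilli of the photoreceptor into diacylglycerol and inositol trisphosphate, and the TRP and TRPL channels then open. Diacylglycerol is turned into phosphatidic acid, then CDP-diacylglycerol, then phosphatidylinositol, which is carried back to the microvilli and phosphorylated again to PIP2. Fly mutants in several of these steps lose the light response or their photoreceptors degenerate.

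Library totals ran from 21344395 to 24165187 counts in deprived heads and from 15668307 to 17935321 in replete heads, so depth followed diet. The library codes in the labels also differ by diet, and what they mark cannot be told apart from it. Of 10 photoreceptor markers 9 were tested, and ninaA was listed at 0 in every library, where a low level and reads lost in counting cannot be told apart. The summed level of the markers, most of it from the opsin gene ninaE, was 17860 to 20332 CPM (counts scaled by library size) in deprived heads and 16896 to 18338 CPM in replete heads. Within that sum eys rose, at 807 ± 36.9 CPM in deprived heads and 404 ± 28.3 CPM in replete heads (SD, n = 3 each; edgeR quasi-likelihood, BH-adjusted p = 0.000182). The opsin gene Rh3 did not overlap either, at 294 ± 21.8 CPM in deprived heads and 391 ± 19.6 CPM in replete heads, and was called in DESeq2 (BH-adjusted p = 0.00669) but not in edgeR (quasi-likelihood, BH-adjusted p = 0.123). The ocellar opsin gene Rh2 was at 64.2 to 69.1 CPM in deprived heads and 77.8 to 89.5 CPM in replete heads.

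Among markers of other cells, the neuron list summed to 3450.0 to 3687 CPM in deprived heads and 3377 to 3441 CPM in replete heads, without overlap. The summed levels of the glia, muscle, fat body, haemocyte, ovary and cornea lists overlapped between the groups. Of the 4 fat body markers Lsp2 rose, at 1083 ± 152 CPM in deprived heads and 641 ± 97.1 CPM in replete heads (SD, n = 3 each; edgeR quasi-likelihood, BH-adjusted p = 0.0373). Fbp1 was higher without overlap but not called, at 17.2 ± 2.38 CPM in deprived heads and 12.4 ± 2.37 CPM in replete heads. The fat body markers Yp1 and apolpp overlapped. Of the 4 muscle markers TpnC41C was lower without overlap, at 15.5 ± 2.68 CPM in deprived heads and 23.7 ± 1.88 CPM in replete heads. Ovary markers, which a head should lack, summed to 11.9 to 41.5 CPM in deprived heads and 0.492 to 79.2 CPM in replete heads. The part of these marker differences in the results was not tested.

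Of the 10 genes, stops rose in deprived heads and none fell (edgeR quasi-likelihood test, Benjamini-Hochberg (BH) adjusted p under 0.05 over 10896 tested genes). Over all tested genes 0.294% were called higher and 0.0367% lower. At an unadjusted p under 0.05, 3 of the 10 were higher (stops, rdgA and PIP4K) and 2 lower (norpA and Cds), where 2.72% of all tested genes were higher and 2.41% lower. The same 5 genes had deprived and replete libraries that did not overlap in CPM, as did 5.86% of all tested genes on the higher side and 5.02% on the lower, or 10.9% in either direction. DESeq2 called 1 of the 10 higher and 0 lower (0.597% and 0.249% of all genes it gave an adjusted p), and limma-voom called 0 in either direction (0.220% and 0.0551% of all genes). The log2 fold changes of the 10 genes, deprived over replete, ran from -0.32 to 0.66. Their median of -0.01 was the same as that over all tested genes. The 10 genes were chosen with earlier results of these data known, so their counts against these shares are a description only.

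**Figure D1:**
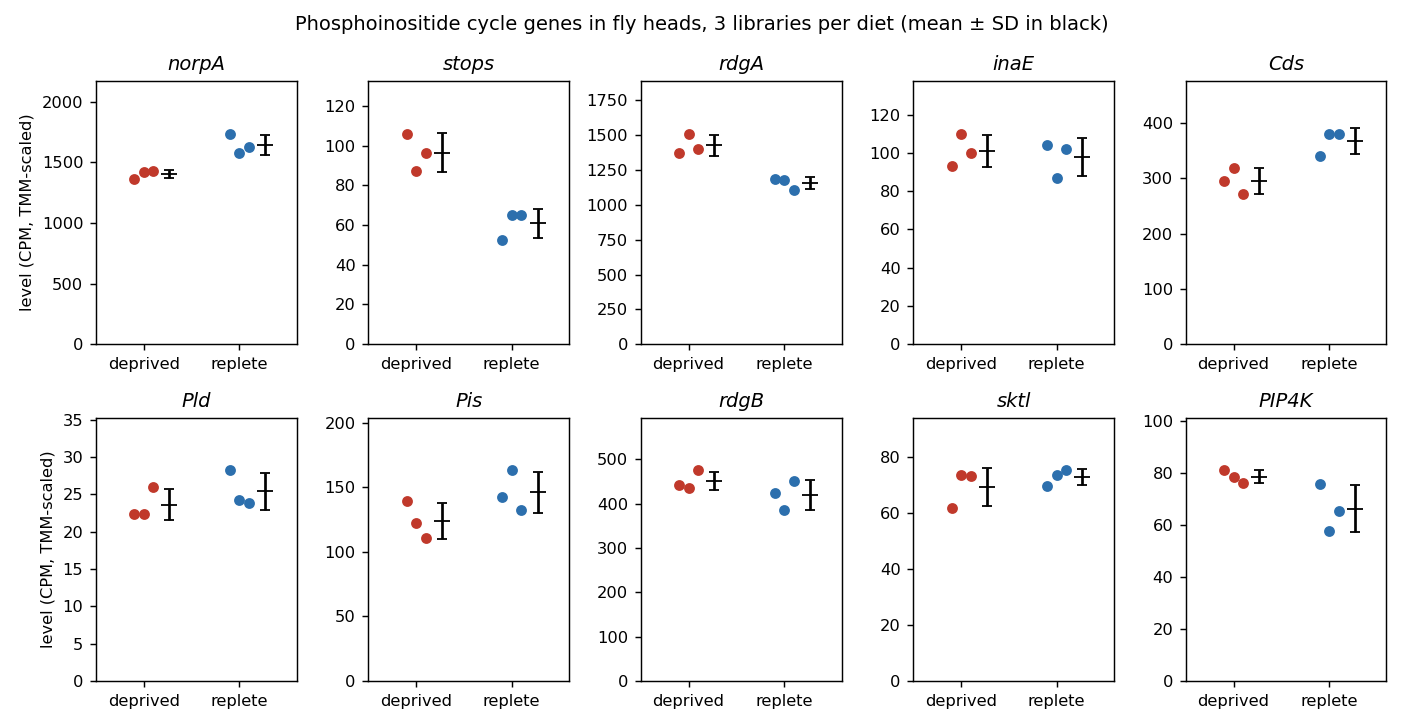
Levels of the 10 genes in CPM (vertical axes from 0, CPM scaled with TMM factors) in the 3 deprived (red) and 3 replete (blue) libraries, with mean ± SD in black. The deprived libraries lie above the replete ones for stops, rdgA and PIP4K and below them for norpA and Cds.

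The phospholipase C transcript was abundant and was not called, while that of its stabilizer rose. The gene norpA (FBgn0262738, chromosome X, 4322626 to 4365408 in the BDGP6.54 assembly) was at 1363, 1419 and 1429 CPM in deprived heads, against 1736, 1574 and 1626 CPM in replete heads. All 3 deprived values lie under all 3 replete values. The log2 fold change was -0.23 (95% interval -0.42 to -0.04), which missed the threshold (edgeR quasi-likelihood test, BH-adjusted p = 0.801). On the TPM scale, in which counts are divided by gene length before libraries are scaled, norpA was at 375, 421 and 404 in deprived and 499.7, 393 and 447 in replete heads, and there the groups overlap. In RNA of whole heads, fewer photoreceptors and less RNA per photoreceptor cannot be told apart.

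The gene stops (FBgn0086704, chromosome 3R, 31158156 to 31169106) encodes a SOCS box protein of photoreceptors that NORPA protein needs to stay at its normal level. It was at 106, 87.0 and 96.1 CPM in deprived heads, against 52.5, 65.0 and 65.2 CPM in replete heads. The lowest deprived library lies above the highest replete one, and the lowest level was in replete library 1. The rise was 1.58-fold, a log2 fold change of 0.66 with a 95% interval of 0.41 to 0.92 (edgeR quasi-likelihood, BH-adjusted p = 0.0352). This call was lost in 9 of 18 alternative fits, among them limma-voom (BH-adjusted p = 0.0750) and 4 of the 6 fits without a library, where the adjusted p reached 0.245 (edgeR quasi-likelihood, BH). The p in the reported fit places stops at rank 30 by p among the tested genes, of which 36 were called. Of its exonic bases, 6.88% also lie in exons of Gycbeta100B on the other strand, a gene at 90.7 ± 5.22 CPM in deprived heads and 85.6 ± 5.80 CPM in replete heads (SD, n = 3 each). Whether counting used strand is not given.

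Among the proteins that remove diacylglycerol, the kinase transcript was higher in every deprived library and the lipase transcript was not. The kinase gene rdgA (FBgn0261549, chromosome X, 8907068 to 9029476), whose enzyme turns diacylglycerol into phosphatidic acid, was at 1369, 1510.4 and 1398 CPM in deprived heads. In replete heads rdgA was at 1186, 1176 and 1109 CPM, with no overlap between the groups. Its log2 fold change of 0.30 (95% interval 0.11 to 0.49) missed the threshold (edgeR quasi-likelihood test, BH-adjusted p = 0.393; DESeq2 BH-adjusted p = 0.131). The replicate libraries of rdgA lie close together, with a coefficient of variation of 5.24% in deprived and 3.60% in replete heads.

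The gene inaE (FBgn0261244, chromosome X, 13783714 to 13811493) encodes a diacylglycerol lipase that the light response needs. It was at 93.2, 110.0 and 99.7 CPM in deprived heads, against 104, 86.7 and 102 CPM in replete heads, so the groups overlap. Its log2 fold change was 0.05 (95% interval -0.18 to 0.27). The interval allows a fall to 0.884-fold or a rise to 1.21-fold.

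Phosphatidic acid comes from the kinase and from phospholipase D, and Cds turns it into CDP-diacylglycerol, the substrate for new phosphatidylinositol. The synthase gene Cds (FBgn0010350, chromosome 3L, 8127762 to 8131675) was at 296, 318 and 271 CPM in deprived heads, against 341, 381 and 381 CPM in replete heads. Each deprived library lies under each replete library. Its log2 fold change of -0.32, the lowest of the 10, had a 95% interval of -0.52 to -0.11 and missed the threshold (edgeR quasi-likelihood test, BH-adjusted p = 0.421; DESeq2 BH-adjusted p = 0.169). Exons of Uba2 cover 2.18% of the exonic bases of Cds, and Uba2 was at 23.4 ± 1.59 CPM in deprived heads, against 25.5 ± 4.44 CPM in replete heads (SD, n = 3 each).

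Phospholipase D, which makes phosphatidic acid from phosphatidylcholine, had the lowest level of the 10. Its gene Pld (FBgn0286511, chromosome 2R, 6242004 to 6255266) was at 22.4, 22.4 and 26.0 CPM in deprived heads, against 28.2, 24.2 and 23.8 CPM in replete heads. The groups overlap, and the log2 fold change was -0.10 (95% interval -0.40 to 0.19). The counts behind these values ran from 490 to 623 in deprived and from 386 to 455 in replete libraries, while those of norpA ran from 31050 to 34194 in deprived and from 26421 to 27988 in replete libraries.

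Phosphatidylinositol is made in the endoplasmic reticulum by Pis and moved to the microvillar membrane by RDGB, a transfer protein that carries phosphatidic acid the other way. The synthase gene Pis (FBgn0030670, chromosome X, 15701451 to 15703770) was at 139, 122 and 111 CPM in deprived heads, against 142, 163 and 132 CPM in replete heads. Deprived library 1 lies within the replete range, and the log2 fold change was -0.23 (95% interval -0.47 to 0.01). The transfer protein gene rdgB (FBgn0003218, chromosome X, 13762752 to 13779488) was at 443, 436 and 475 CPM in deprived heads, against 423, 385 and 451 CPM in replete heads. Its groups overlap, at a log2 fold change of 0.10 (95% interval -0.09 to 0.30). The annotation places rdgB and inaE next to each other on the same strand of chromosome X. Their log2 fold changes of 0.10 and 0.05 both have intervals that include 0.

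The phosphatidylinositol phosphate kinases close the cycle. The 5-kinase gene sktl (FBgn0016984, chromosome 2R, 20827282 to 20836028), whose enzyme makes PIP2 from phosphatidylinositol 4-phosphate, was at 61.7, 73.5 and 73.3 CPM in deprived heads, against 69.8, 73.6 and 75.3 CPM in replete heads. The groups overlap, with a log2 fold change of -0.07 (95% interval -0.29 to 0.15). PIP4K (FBgn0039924, chromosome 4, 1192419 to 1196848), whose enzyme phosphorylates phosphatidylinositol 5-phosphate, was at 81.1, 78.5 and 76.2 CPM in deprived heads, against 75.8, 57.9 and 65.3 CPM in replete heads. The lowest deprived and the highest replete library of PIP4K nearly meet. With the size factors of DESeq2 (RLE), with library totals only and in TPM the groups overlap. The log2 fold change of PIP4K was 0.25 (95% interval 0.00 to 0.49), which missed the threshold (edgeR quasi-likelihood, BH-adjusted p = 0.968).

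Both kinase genes share exonic bases with a neighbour. Exons of insc cover 8.74% of sktl on the same strand, and insc was at 12.6 ± 1.40 CPM in deprived heads and 13.2 ± 2.82 CPM in replete heads (SD, n = 3 each). Exons of CG33521 cover 20% of PIP4K on the other strand. CG33521 was at 64.9 ± 6.10 CPM in deprived heads and 80.7 ± 13.7 CPM in replete heads, the other direction from PIP4K (log2 fold change -0.32; edgeR quasi-likelihood, BH-adjusted p = 0.894). How reads of these shared bases were counted is not given.

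**Figure D2:**
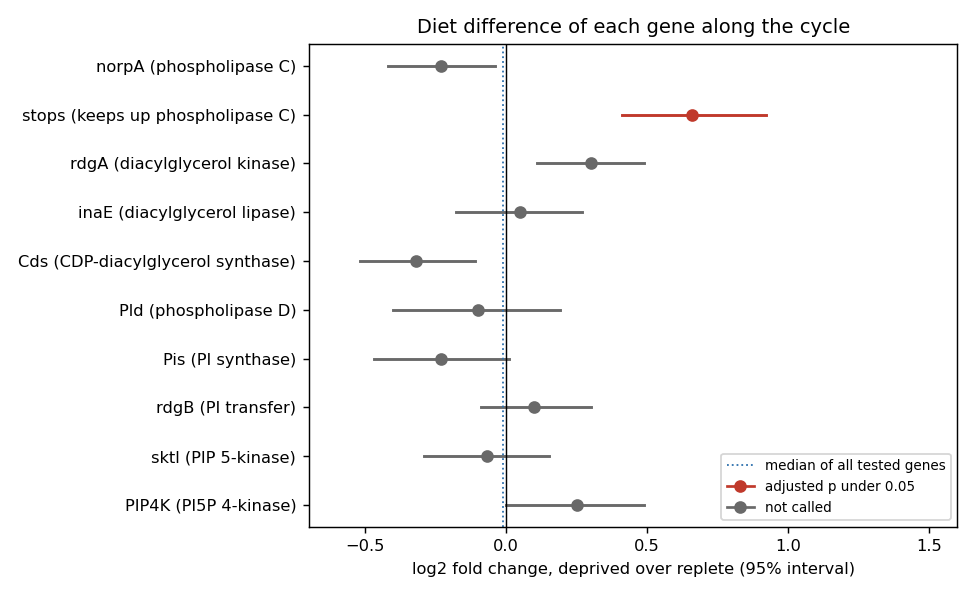
Log2 fold change, deprived over replete, of the 10 genes in the order of the cycle (points) with 95% intervals (lines); the dotted line is the median of all tested genes, -0.01. Only stops, at 0.66, was called. Among the others, norpA and Cds lie below 0 and rdgA above 0 with intervals that exclude it. The interval of PIP4K starts at 0.00 when rounded.

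Levels can be compared between genes only per length, in TPM, here with the annotated exonic length of each gene. In deprived heads norpA came highest at 400.0 ± 23.0 TPM, followed by Cds at 268 ± 28.7, rdgA at 245 ± 22.1, Pis at 178 ± 17.6, rdgB at 115 ± 5.47 and stops at 99.0 ± 6.38 TPM. The lowest in deprived heads were sktl at 40.1 ± 5.11, inaE at 33.6 ± 4.09 and Pld at 10.3 ± 0.917 TPM (SD, n = 3 each). PIP4K lay between Pis and rdgB, at 119.7 to 129 TPM over the deprived libraries. In replete heads norpA was at 447 ± 53.3, Cds at 316 ± 15.6, Pis at 197 ± 13.7, rdgA at 189 ± 15.1, rdgB at 102 ± 13.8, PIP4K at 100.4 ± 20.5 and stops at 59.3 ± 5.08 TPM. There sktl, inaE and Pld were at 39.8 ± 2.41, 31.0 ± 5.13 and 10.6 ± 1.67 TPM (SD, n = 3 each). The order of the genes is nearly the same on both diets.

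Neighbours in that order whose libraries overlap are Cds and rdgA, PIP4K and rdgB, and sktl and inaE in deprived heads, and Pis and rdgA and rdgB and PIP4K in replete heads. In deprived heads rdgA stands above Pis in every library, and in replete heads the ranges of rdgA and Pis overlap. By level per length in replete heads, norpA stood at the 97.5th percentile of all tested genes, Cds at the 96.6th, stops at the 80.6th and Pld at the 36.7th. On the TPM scale 3 of the 10 genes did not overlap between diets, namely stops and rdgA on the higher side and Cds on the lower. The share of all tested genes without overlap was not computed in TPM, so this count is a description only.

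Ratios between genes of the cycle within a library do not depend on how libraries are scaled. The TPM ratio of stops to norpA was 0.282, 0.221 and 0.243 in deprived heads, against 0.109, 0.149 and 0.145 in replete heads. Deprived heads thus held 1.86 times as much stops per norpA transcript as replete heads, with no overlap. The ratio of rdgA to Cds was 0.876, 0.900 and 0.976 in deprived heads, against 0.660, 0.585 and 0.551 in replete heads. This ratio of kinase to synthase was 1.54-fold higher in deprived heads, also with no overlap.

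The ratio of rdgA to norpA was 0.606, 0.642 and 0.590 in deprived heads, against 0.412, 0.450 and 0.411 in replete heads. It did not overlap either, at 1.44-fold higher in deprived heads. Between the kinases, the ratio of sktl to PIP4K was 0.277, 0.341 and 0.350 in deprived heads, against 0.335, 0.462 and 0.419 in replete heads, and there the groups overlap. These pairs were chosen with earlier results of these data known, so the ratios are a description and carry no test.

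**Figure D3:**
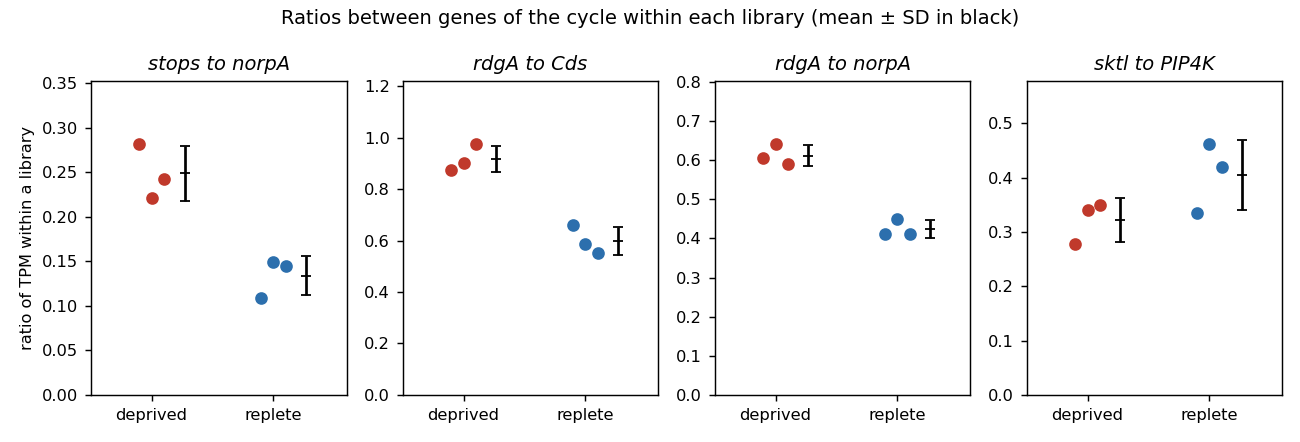
Ratio of TPM values within each library (vertical axes from 0) for 4 pairs of genes, in deprived (red) and replete (blue) heads, with mean ± SD in black. The deprived libraries lie above the replete ones for stops to norpA, rdgA to Cds and rdgA to norpA, and the groups overlap for sktl to PIP4K.

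Set against every other tested gene in the same way, the ratio of stops to the other gene was higher in all deprived libraries than in all replete libraries for 66.3% of genes, and for 7 of the other 9 members, which were all but rdgA and PIP4K. For rdgA the share was 37.9% of genes and 6 of 9 members. The ratio of Cds to another gene was lower in all deprived libraries for 34.7% of genes and 6 of 9 members, and that of norpA for 28.3% of genes and 5 of 9 members. In the opposite directions these shares were 0.330% for stops, 0.918% for rdgA, 0.441% for Cds and 0.679% for norpA. For a gene whose own libraries do not overlap, such shares largely restate its own values. A pair of members enters the counts of both, so these shares and counts are a description and carry no test.

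The remaining members stood apart from fewer genes. The ratio of PIP4K was higher in all deprived libraries against 20.2% of genes and 4 of 9 members and lower against 1.20% and 0, and that of rdgB higher against 10.5% and 2 of 9 and lower against 2.67% and 1. The ratio of Pis was lower against 15.2% of genes and 3 of 9 members and higher against 0.762% and 0, and that of Pld lower against 7.73% and 3 of 9 and higher against 1.29% and 0. For sktl the shares were 7.22% and 2 of 9 on the lower side and 1.90% and 1 on the higher side. For inaE they were 3.15% and 2 of 9 on the lower side and 4.31% and 2 on the higher side.

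Beyond the 10 genes, 44 further genes of phosphoinositide, diacylglycerol, phosphatidic acid and inositol phosphate metabolism were listed, of which 43 were tested and fab1 was listed at 0 in every library, with the same doubt as for ninaA. Of the 43, 1 rose and 0 fell (edgeR quasi-likelihood, BH-adjusted p under 0.05). Over all tested genes 0.294% were called higher and 0.0367% lower. At an unadjusted p under 0.05, 4 were higher and 1 lower, where 2.72% of all tested genes were higher and 2.41% lower. DESeq2 and limma-voom made the same counts of calls, 1 and 0. Over all genes, DESeq2 called 0.597% higher and 0.249% lower, and limma-voom 0.220% and 0.0551%. Their log2 fold changes had a median of -0.01, which is also the median of all tested genes, and 20 were positive and 23 negative.

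The gene that rose was CG11426, a predicted lipid phosphate phosphatase, at 177 ± 10.3 CPM in deprived heads and 13.2 ± 0.545 CPM in replete heads (SD, n = 3 each; edgeR quasi-likelihood, BH-adjusted p = 1.45e-09). Lipid phosphate phosphatases turn phosphatidic acid back into diacylglycerol and so run against the kinase encoded by rdgA. The member of that family known to do this in photoreceptors, laza, was at 48.6, 43.5 and 39.7 CPM in deprived heads, against 37.3, 51.4 and 54.9 CPM in replete heads, with overlap. CG11438 of the same family was at 17.9 ± 1.15 CPM in deprived heads and 12.4 ± 1.93 CPM in replete heads and missed the threshold (edgeR quasi-likelihood test, BH-adjusted p = 0.542). Lpin, which encodes the lipin that dephosphorylates phosphatidic acid for lipid synthesis, had a log2 fold change of 0.17.

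Genes for signalling and transfer steps next to the 10 members were close to 0. Of the other phospholipase C genes, Plc21C had a log2 fold change of 0.08 and sl of -0.05, and Itpr, the inositol trisphosphate receptor gene, one of -0.05. The other diacylglycerol kinase genes were at 0.10 for Dgk and -0.04 for Dgkepsilon on the same scale. Among genes for lipid transfer and membrane contact, log2 fold changes were -0.09 for vib, -0.04 for rdgBbeta, -0.03 for Vap33 and -0.03 for Esyt2. None of these 9 genes had an unadjusted p under 0.05, and all 9 overlapped between the groups.

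The 4-kinases make the substrate of SKTL, and their genes had log2 fold changes close to 0. Pi4KIIIalpha, which encodes the plasma membrane enzyme, was at 0.04, and stmA and Ttc7, which encode parts of its complex, were at -0.05 and 0.08 on the log2 scale. The 4-kinase gene fwd of the Golgi was at -0.01. The second 5-kinase gene, PIP5K59B, was at 0.03, with 155 ± 4.36 CPM in deprived heads and 152 ± 4.37 CPM in replete heads (SD, n = 3 each). Of the 3-kinase genes, Pi3K68D was at 0.12, Pi3K92E at 0.09, Pi3K21B at 0.01 and Pi3K59F at -0.11 on the log2 scale.

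Of the 43 genes, 7 had groups that did not overlap, as did 10.9% of all tested genes. Among the 7 were the phosphatase genes Sac1, mtm, INPP5E and Ipp. Sac1, which encodes a phosphatidylinositol 4-phosphate phosphatase, was at 80.2, 85.6 and 81.7 CPM in deprived heads, against 67.4, 61.3 and 70.0 CPM in replete heads. The groups of Sac1 do not overlap, and its log2 fold change of 0.32 missed the threshold (edgeR quasi-likelihood test, BH-adjusted p = 0.463). The myotubularin gene mtm, a 3-phosphatase, had a log2 fold change of 0.35 and INPP5E of -0.24, neither called. Ipp, which encodes an inositol polyphosphate 1-phosphatase, was at 80.4, 70.0 and 69.2 CPM in deprived heads, against 98.0, 87.6 and 106 CPM in replete heads. With a log2 fold change of -0.41 it also did not pass (edgeR quasi-likelihood, BH-adjusted p = 0.274; DESeq2 BH-adjusted p = 0.0818). Of the other inositol phosphate genes, IP3K1 was at -0.36, Inos at 0.11 and CG17029 at 0.16 on the log2 scale, and none had an unadjusted p under 0.05.

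**Figure D4:**
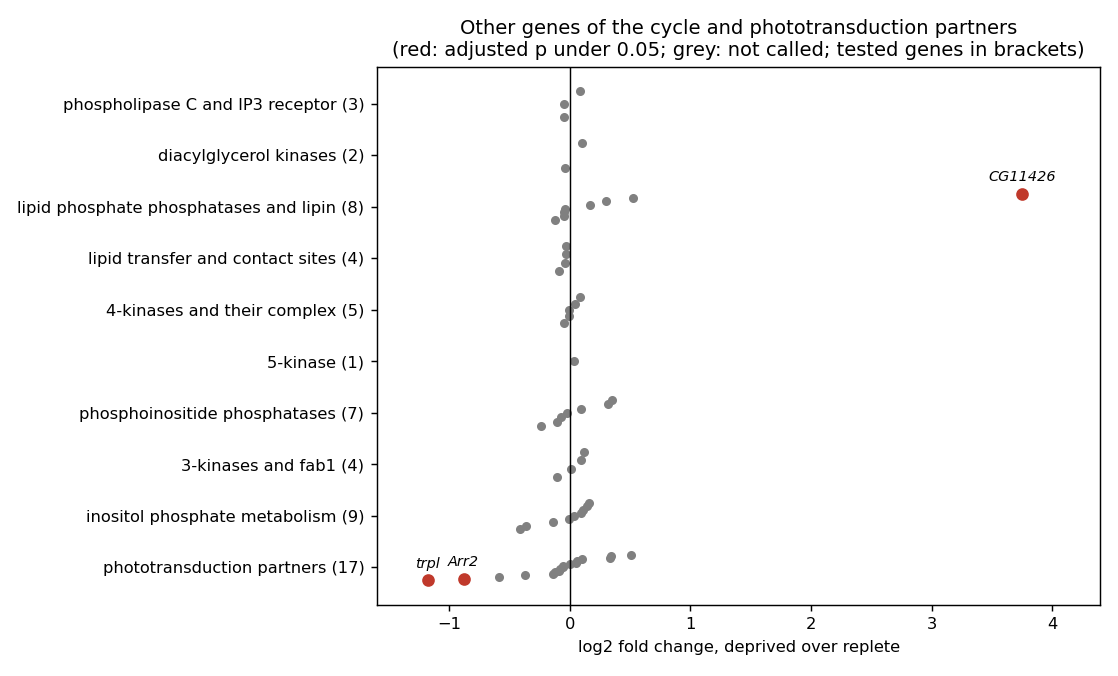
Log2 fold change, deprived over replete, of the 43 tested genes of the cycle beyond the 10 members, by role, and of 17 phototransduction partners; each point is a gene, red where the BH-adjusted p is under 0.05. CG11426 lies at 3.75, trpl at -1.18 and Arr2 at -0.88, and the remaining genes lie between -0.59 and 0.52.

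Of 17 genes that act with the cycle in phototransduction, 2 fell and 0 rose (edgeR quasi-likelihood, BH-adjusted p under 0.05). Over all tested genes 0.0367% were called lower and 0.294% higher. At an unadjusted p under 0.05, 4 were lower and 3 higher, where 2.41% of all tested genes were lower and 2.72% higher. DESeq2 called 3 lower and 1 higher (0.249% and 0.597% of all genes), and limma-voom 2 lower and 0 higher (0.0551% and 0.220% of all genes). The 2 that fell were the channel gene trpl, at 397 ± 11.0 CPM in deprived heads and 899 ± 184 CPM in replete heads, and the arrestin gene Arr2, at 2018 ± 252 CPM in deprived heads and 3724 ± 336 CPM in replete heads (SD, n = 3 each). A further partner lower at an unadjusted p under 0.05 was inaD, with a log2 fold change of -0.37. It was at 279 ± 44.9 CPM in deprived heads and 362 ± 66.8 CPM in replete heads (SD, n = 3 each). Its groups overlap, and it was not called (edgeR quasi-likelihood, BH-adjusted p = 0.968). Both inaD and the 5 partners that follow were named after their values were seen. Galphaq, which encodes the G protein subunit that activates NORPA, was at 168, 159 and 150.0 CPM in deprived heads, against 164, 146 and 167 CPM in replete heads, with overlap.

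Diacylglycerol also activates protein kinase C. Its eye form, encoded by inaC, was at 543, 492 and 476 CPM in deprived heads, against 349.8, 311 and 401 CPM in replete heads. These values do not overlap. The log2 fold change of 0.51 missed the threshold in edgeR (quasi-likelihood, BH-adjusted p = 0.0963) and passed it in DESeq2 (BH-adjusted p = 0.00329). The gene inaC also passed in edgeR with no filter on low counts and in edgeR without replete library 3. A further protein kinase C gene, Pkc53E, was at 218, 195 and 189.7 CPM in deprived heads, against 154, 156 and 169.7 CPM in replete heads. It did not pass (edgeR quasi-likelihood, BH-adjusted p = 0.320). The G protein subunit gene Gbeta76C had a log2 fold change of 0.34 and did not pass (edgeR quasi-likelihood, BH-adjusted p = 0.574). The second arrestin gene Arr1 was at 1462 ± 236 CPM in deprived heads and 2199.7 ± 185 CPM in replete heads (SD, n = 3 each), without overlap. It missed the threshold in edgeR (quasi-likelihood, BH-adjusted p = 0.0874) and passed it in DESeq2 (BH-adjusted p = 0.000468), in edgeR with no filter on low counts and in edgeR without deprived library 1. Over the 18 alternatives the adjusted p ran from 0.000468 to 0.646 for Arr1 and from 0.00329 to 0.467 for inaC.

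The rise of stops kept its direction under all 18 other ways of processing, with log2 fold changes from 0.57 to 0.82, and was called in 9 of them. Leaving out a library ended the call for deprived library 1 (edgeR quasi-likelihood, BH-adjusted p = 0.245), deprived library 2 (0.0627), deprived library 3 (0.197) or replete library 1 (0.153). Limma-voom (BH-adjusted p = 0.0750) and non-robust dispersion (edgeR quasi-likelihood, BH-adjusted p = 0.0693) did not make it either. With the replicate block it was lost too (edgeR quasi-likelihood, BH-adjusted p = 0.121). Thinning every library to the smallest total gave an adjusted p of 0.0517 in the draw used (edgeR quasi-likelihood, BH). Of 20 random draws, added after that result was seen, 18 called stops, with BH-adjusted p-values of 0.0213 to 0.0522 (edgeR quasi-likelihood). A covariate made of clock genes also ended the call (edgeR quasi-likelihood, BH-adjusted p = 0.0961). That covariate was 0.46, 0.61 and 1.16 in the deprived libraries, against 0.61, -0.63 and -2.21 in the replete libraries, on a log2 scale centred at 0, and so partly followed diet.

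**Figure D5:**
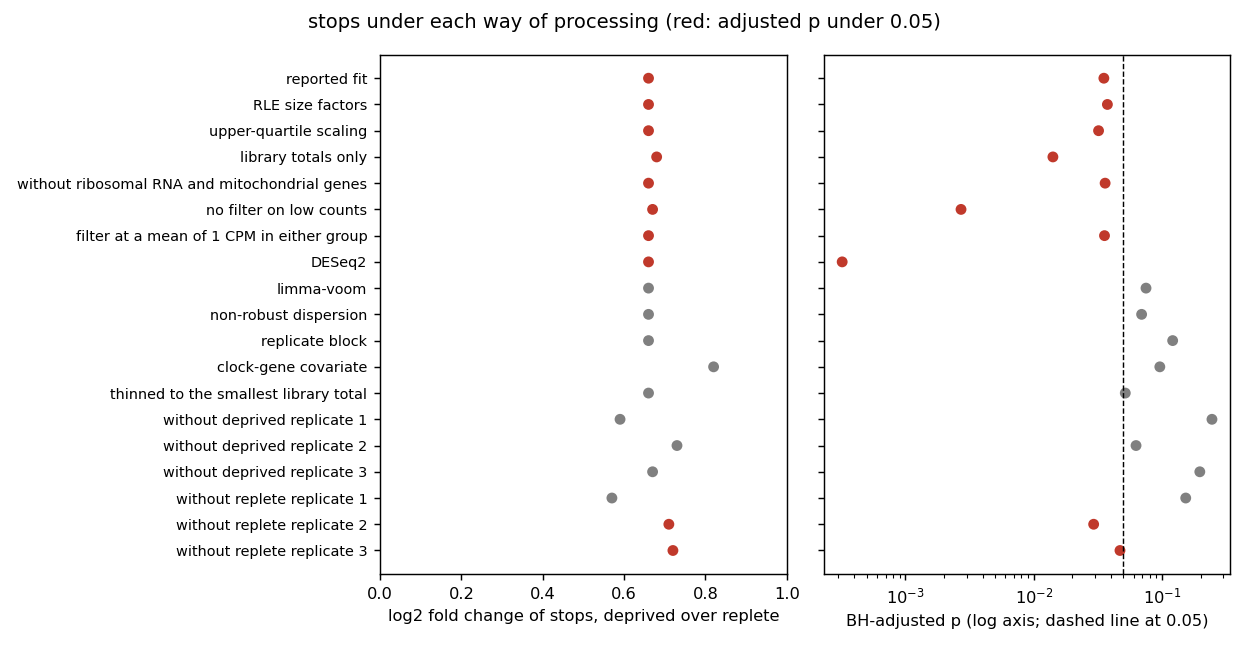
Log2 fold change of stops, deprived over replete (left, axis from 0), and its BH-adjusted p (right, log axis, dashed line at 0.05) in the reported fit and 18 alternatives; red points have an adjusted p under 0.05. The fold change stays between 0.57 and 0.82, while the adjusted p runs from 0.000321 in DESeq2 to 0.245 without deprived library 1.

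The other 9 genes were not called in any of these fits. Their directions held in all 18 for norpA, rdgA, Cds, Pld, Pis, rdgB and PIP4K, whereas inaE and sktl, which lie close to 0, changed sign in fits that leave out a library. The log2 fold change of rdgA ran from 0.25 to 0.33, that of norpA from -0.28 to -0.19, that of Cds from -0.38 to -0.22 and that of PIP4K from 0.16 to 0.35.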

How the data were processed

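The authors deposited whole-number read counts per FlyBase gene, 1 file per library, not normalized per the file headers and values. Tools credited to the submitters' processing notes are STAR 2.5.3a, featureCounts of Subread 1.6.2, Trim Galore 0.4.2 and FastQC 0.11.5. No source used here gives the build, annotation, strand setting or handling of multi-mapping reads. Symbols, positions and exonic lengths came from Ensembl release 115, BDGP6.54, by gene identifier (17389 of 17509 placed).

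Genes were kept by filterByExpr (minimum count 10, minimum total 15; 10896 genes) and tested with edgeR 4.0.16 in R 4.3.3 (TMM, robust quasi-likelihood fit, group as the only term, 3 deprived against 3 replete libraries), with BH adjustment over all tested genes and calls at an adjusted p under 0.05. The 95% intervals use the standard error implied by the F statistic. The fit was tested on simulated data. DESeq2 1.42.0 and limma-voom (limma 3.58.1) were alternatives. CPM values use TMM-scaled library sizes, in which 3 counts equal 0.125 to 0.137 CPM in deprived and 0.169 to 0.186 CPM in replete libraries, for counting error only. Ratios of a member to every other gene used counts plus 0.5.

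Named were all 10 members, called genes of the other lists and, per role of the cycle list, up to 4 genes with the smallest p. The members, lists, ratios and alternatives were chosen with earlier results of these data known. Libraries of a group differed beyond counting error (chi-square per degree of freedom 18.1 to 43.4) and each was counted as 1 replicate, which does not show that they are independent, since repeat libraries from shared RNA may differ as much. Values of some genes that the naming rule or an exon overlap would bring in are not reported here.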

Additional observations from a re-analysis of the deposited data

How the results depend on the processing

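Each group had 3 libraries, and the common biological coefficient of variation over the tested genes was 20.6%. A fit that leaves out a library also has fewer libraries, and why calls were lost was not tested. The count of members called higher was 0 with limma-voom, non-robust dispersion, the clock-gene covariate or the thinned draw used. It was 0 to 1 when a library was left out, against 1 in the reported fit. Of 20 random thinned draws, 18 called stops. For stops the log2 fold change was 0.66 with limma-voom, non-robust dispersion and thinning, 0.82 with the clock-gene covariate and 0.57 to 0.73 without a library. The replicate numbers of the labels were not shown to pair libraries, since same-numbered deviations correlated at -0.06, 0.02 and 0.18. With the replicate block, 0 members were called higher, stops stayed at a log2 fold change of 0.66 (edgeR quasi-likelihood, BH-adjusted p = 0.121), and over all genes 24 were higher and 6 lower.

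Over all genes, 32 were called higher and 4 lower. DESeq2 called 60 higher and 25 lower, the clock-gene covariate left 12 higher, no filter on low counts gave 10 lower, and fits without a library gave 18 to 32 higher and 2 to 7 lower. Among the partners, 1 was called higher in DESeq2 and with no filter, 0 to 1 without a library, and 1 lower with the clock-gene covariate, where Arr2 was at -0.74.

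Signs changed only for genes near 0 that no fit called. With the clock-gene covariate log2 fold changes were 0.16 for Pi3K59F, -0.08 for Pi3K21B, 0.03 for stmA, fwd and Galphaq, 0.19 for laza, 0.13 for Esyt2 and 0.01 for Itpr. With library totals only they were 0.01 for fwd and 0.02 for Galphaq, which was at 0.00 with no filter and 0.02 with thinning. Without a library, log2 fold changes ran from -0.03 to 0.10 for inaE, -0.11 to 0.01 for sktl, -0.22 to 0.07 for Pi3K59F, -0.07 to 0.11 for Pi3K21B, -0.11 to 0.19 for Pi4KIIIalpha, -0.11 to 0.06 for fwd, -0.13 to 0.01 for Dgkepsilon, -0.07 to 0.04 for Vap33, -0.09 to 0.07 for Esyt2, -0.10 to 0.03 for rdgBbeta, -0.01 to 0.15 for Plc21C, -0.13 to 0.02 for Itpr, -0.14 to 0.04 for sl and -0.06 to 0.04 for Galphaq. The causes were not tested.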
